A study of Mus musculus with 12 samples.

Results

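The small leucine-rich proteoglycans are secreted proteins of the extracellular matrix built around a curved stack of leucine-rich repeats, most of which carry chondroitin, dermatan or keratan sulphate chains. The 8 members described here were decorin (Dcn), lumican (Lum), osteoglycin (Ogn), biglycan (Bgn), fibromodulin (Fmod), osteomodulin (Omd, also called osteoadherin), the proline- and arginine-end leucine-rich repeat protein (Prelp) and asporin (Aspn). They were chosen by name: every gene probe whose deposited name, or current symbol by accession, was one of these 8 was taken. This gave 11 probes of the 41174 gene probes on the array, 2 each for Dcn, Bgn and Prelp and 1 each for the rest, and 8 genes of the 25197 tested.

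These proteins bind fibrillar collagens and are known for setting the width and spacing of collagen fibrils in skin, tendon, cornea, cartilage and bone. Several also bind growth factors and receptors; decorin, for example, binds TGF-beta, and biglycan is a ligand of Toll-like receptors. In connective tissue they are made mainly by fibroblasts and related cells.

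The study reprogrammed mouse fibroblasts to induced pluripotent stem (iPS) cells, and RNA of 12 samples was labelled with Cy3 and each hybridised once, to an Agilent mouse array. The iPS samples were 9 lines, all given Oct4 (Pou5f1). From embryonic fibroblasts came 2 lines made with Bmi1, a Polycomb subunit, and Oct4 (BOiPS, here Bmi1-Oct4), and 5 lines made by first treating the cells with an activator of hedgehog signalling, which gave neural stem cell-like cells, and then adding Oct4: 1 with the protein Shh (SOiPS, Shh-Oct4), 2 with oxysterol, an oxidised cholesterol (OOiPS, oxysterol-Oct4), and 2 with purmorphamine, a Smoothened agonist (POiPS, purmorphamine-Oct4). For the last 2 lines (OOiPS-TTF, tail-tip) the oxysterol and Oct4 were given to tail-tip fibroblasts of adult animals. The remaining samples were 1 of Bmi1-transduced neural stem cell-like spheres grown from embryonic fibroblasts, 1 of embryonic stem (ES) cells of the 129/Ola strain and 1 of mouse embryonic fibroblasts (MEF). Strain (other than for ES), age and passage were not stated in the labels, each line is 1 sample, and nothing says that lines came from separate fibroblast cultures, so p-values measure the spread between these samples only.

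The array's 75th percentile of signal lay between 1322 and 2148 intensity units, and 58.4% (Shh-Oct4) to 80.0% (spheres) of gene spots were well above background. All levels below are log2 units relative to that percentile, so that 0 is a gene brighter than 75% of probes on its array. Of 10 pluripotency markers 9 were measured, and all 9 had a higher mean in the lines than in MEF (median difference 10.29). Of the 9, 8 were higher at an adjusted p below 0.05 (limma), as were 7.87% of all genes. In the sphere sample the median of these markers was -5.51, and 7 of 8 neural stem markers were above background, among them Nes at 0.46, while Prom1 was not. MEF had Nes at 0.38 and Prom1 above background at -0.19. Between spheres and MEF, 2 of the 8 neural stem markers were at least 2-fold higher in spheres and 2 lower. Over all genes 32.4% were higher and 18% lower. The median difference of these 8 was 0.30, against 0.34 over all genes. ES, MEF and the spheres had 1 array each, so that every test below takes its error from the spread between lines. Precision is limited by how few arrays there are.

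The probes that carried the results are shown by their first 30 of 60 bases, written 5′ to 3′ in lower case, with the array design's positions on mm7. For Dcn, Bgn and Prelp both probes are given, because the 2 probes of a gene behaved differently. Whether a probe lies in a coding or an untranslated exon is not given in the sources used here.
Dcn, brighter probe (chr10:97080086-97080145, plus strand): aacaccttcagatgtgtctatgtgcgttct
Dcn, dimmer probe (chr10:97043200-97043259, plus strand): gagggatttacagattcacttcatacatac
Bgn, brighter probe (chrX:68879864-68879923, plus strand): caatcagattcggatgattgagaatgggag
Bgn, dimmer probe (chrX:68878335-68878394, plus strand): cacagaaagtgtattccatcatagctctta
Prelp, brighter probe (chr1:133800142-133800201, minus strand): ctgtacatcttatctattctccaaaagacc
Prelp, dimmer probe (chr1:133804829-133804888, minus strand): ttacctttacttgcagaacaacttcatcac
Lum (chr10:97135063-97135122, plus strand): taagcatttgcacggttacttagtgaaact
Ogn (chr13:49108057-49108116, plus strand): cattaaagcatctgtgaactgtaaggccac
Omd (chr13:49076355-49076414, plus strand): taaagatcagaactgcgtttaagatgttgg

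The genes lie in clusters. In the RefSeq annotation of GRCm38.p6, Dcn is followed by Lum and Kera on chromosome 10. Ecm2, Aspn, Omd and Ogn follow each other on chromosome 13, and Optc, Prelp and Fmod on chromosome 1. Bgn lies apart from the others, on the X chromosome between Haus7 and Atp2b3. Neighbours could have unlike values. No line reached MEF for Ogn, while all 9 lay above MEF for its neighbour Omd. Likewise no line reached MEF for Prelp, while 4 of 9 lay above MEF for its neighbour Fmod.

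For these neighbours the 300 bases from 250 before to 50 after the annotated start (RefSeq, GRCm38.p6) are shown, each read along the gene. Capitals mark the letters TATAAA and CCAAT on either strand. A match is a description of the letters and not a known site.
Omd (chr13:49582212-49582511, plus strand): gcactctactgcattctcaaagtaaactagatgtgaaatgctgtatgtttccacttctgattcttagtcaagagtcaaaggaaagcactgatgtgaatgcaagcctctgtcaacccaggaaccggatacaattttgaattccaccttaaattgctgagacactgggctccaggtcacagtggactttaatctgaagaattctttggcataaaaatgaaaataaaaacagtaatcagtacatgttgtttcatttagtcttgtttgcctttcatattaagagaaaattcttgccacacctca
Ogn (chr13:49607765-49608064, plus strand): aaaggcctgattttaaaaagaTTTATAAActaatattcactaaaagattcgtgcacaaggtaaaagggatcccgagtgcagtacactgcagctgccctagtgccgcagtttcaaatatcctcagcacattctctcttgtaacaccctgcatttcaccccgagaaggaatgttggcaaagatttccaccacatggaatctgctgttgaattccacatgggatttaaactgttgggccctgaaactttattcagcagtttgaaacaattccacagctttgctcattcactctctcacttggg
Fmod (chr1:134037004-134037303, plus strand): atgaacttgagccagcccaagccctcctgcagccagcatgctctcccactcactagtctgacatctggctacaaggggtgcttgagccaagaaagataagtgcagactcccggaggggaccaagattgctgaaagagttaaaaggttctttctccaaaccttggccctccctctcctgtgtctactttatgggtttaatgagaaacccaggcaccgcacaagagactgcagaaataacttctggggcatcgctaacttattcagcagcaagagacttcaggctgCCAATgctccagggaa
Prelp (chr1:133921352-133921651, minus strand): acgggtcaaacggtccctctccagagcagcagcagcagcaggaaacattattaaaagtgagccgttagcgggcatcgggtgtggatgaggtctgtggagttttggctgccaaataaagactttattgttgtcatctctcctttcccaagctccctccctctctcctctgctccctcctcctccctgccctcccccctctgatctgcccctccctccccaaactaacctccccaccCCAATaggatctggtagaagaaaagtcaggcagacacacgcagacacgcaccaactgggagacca

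The window of Omd held 1 CG, that of Ogn 4, that of Fmod 3 and that of Prelp 7, against a median of 7 over 32851 promoter windows of the same length. No TATAAA or CCAAT was among the letters of Omd's window. The Ogn window held TATAAA on both strands, starting at -229 and -227 relative to the start, in overlapping copies. Over all windows 13.6% held TATAAA and 37.4% held CCAAT. Of the 8 members, 6 had a window in the table used. The windows of Bgn and Aspn held 9 and 3 CG.

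Decorin is the collagen-binding proteoglycan named for decorating fibrils. Its brighter probe ran from -9.09 to 2.02 over the 9 lines with a median of -5.27, and stood at 2.99 in spheres, -7.33 in ES (not well above background) and 4.67 in MEF. In raw signal that was 45214 intensity units in MEF and 9.9 in ES. The lines were split: Dcn was well above background in 4 of 9, with 2.02 in tail-tip line 2, 2.02 in purmorphamine-Oct4 line 2, -0.48 in oxysterol-Oct4 line 1 and -5.27 in Bmi1-Oct4 line 1. All 9 lines and the spheres lay below MEF. The best-expressing lines were 6.26-fold (tail-tip line 2) and 6.27-fold (purmorphamine-Oct4 line 2) below MEF, while Bmi1-Oct4 line 2 was at least 3007-fold below it.

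Lumican, a keratan sulphate proteoglycan needed for a clear cornea, lies next to Dcn. Over the lines it ran from -8.87 to -1.07 with a median of -6.29, against -1.49 in spheres, -7.31 in ES (not well above background) and 3.43 in MEF. It was above background in 5 of 9 lines and highest in the same 3 lines as Dcn, with purmorphamine-Oct4 line 2 at -1.07, tail-tip line 2 at -1.66 and oxysterol-Oct4 line 1 at -2.84. These lines were 22.6-fold, 34.1-fold and 77.2-fold below MEF. The sphere value lay among theirs, 30.3-fold below MEF.

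Prelp, a heparin-binding member of the family, gave -9.08 to -0.81 in the lines with a median of -6.39. It stood at -2.60 in spheres, -7.34 in ES (not well above background) and 1.42 in MEF. The same 3 lines were again highest, at -0.81 in tail-tip line 2, -1.77 in oxysterol-Oct4 line 1 and -2.59 in purmorphamine-Oct4 line 2. The first of these was 4.69-fold below MEF, and these 3 lines lay above the sphere level. Of the other lines only Bmi1-Oct4 line 1 was above background, at -6.39.

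Biglycan, the closest relative of decorin in this family, was above background on all 12 arrays. Its brighter probe ran from -4.71 to -0.53 over the lines with a median of -3.39, and gave -2.62 in spheres, -4.15 in ES and 0.89 in MEF. All lines were below MEF, by 2.69-fold in tail-tip line 2 and by up to 48.5-fold in Bmi1-Oct4 line 2. The lines and ES overlapped, with 6 of 9 lines above ES.

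Osteoglycin, a keratan sulphate proteoglycan first known from bone, was seen in few samples. In the lines it ran from -9.31 to -3.96 with a median of -7.03, against -2.32 in spheres, -7.34 in ES (not well above background) and -1.89 in MEF. The only lines above background were those from tail-tip fibroblasts, at -3.96 in line 1 and -4.88 in line 2. They were 4.21-fold and 7.98-fold below MEF. Spheres and MEF differed by 1.35-fold. Asporin, a relative of decorin that lacks the usual glycosaminoglycan attachment site, was above background on 1 array only, the spheres, at -6.19. It ran from -9.36 to -6.27 in the lines and stood at -7.32 in ES and -7.12 in MEF, values without order because none was above background.

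Fibromodulin, a keratan sulphate proteoglycan of tendon and cartilage, was almost level. It ran from -1.09 to -0.03 in the lines with a median of -0.78, against -0.82 in spheres, -0.81 in ES and -0.70 in MEF, above background everywhere. Osteomodulin, which is best known from bone matrix, ran opposite to the others. It lay between -0.71 and 0.70 in the lines with a median of -0.11, and at -2.55 in spheres, 0.25 in ES and -3.58 in MEF. All 9 lines were above both spheres and MEF, by 7.32-fold (oxysterol-Oct4 line 2) to 19.4-fold (purmorphamine-Oct4 line 2) against MEF. ES lay within the range of the lines.

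**Figure D1:**
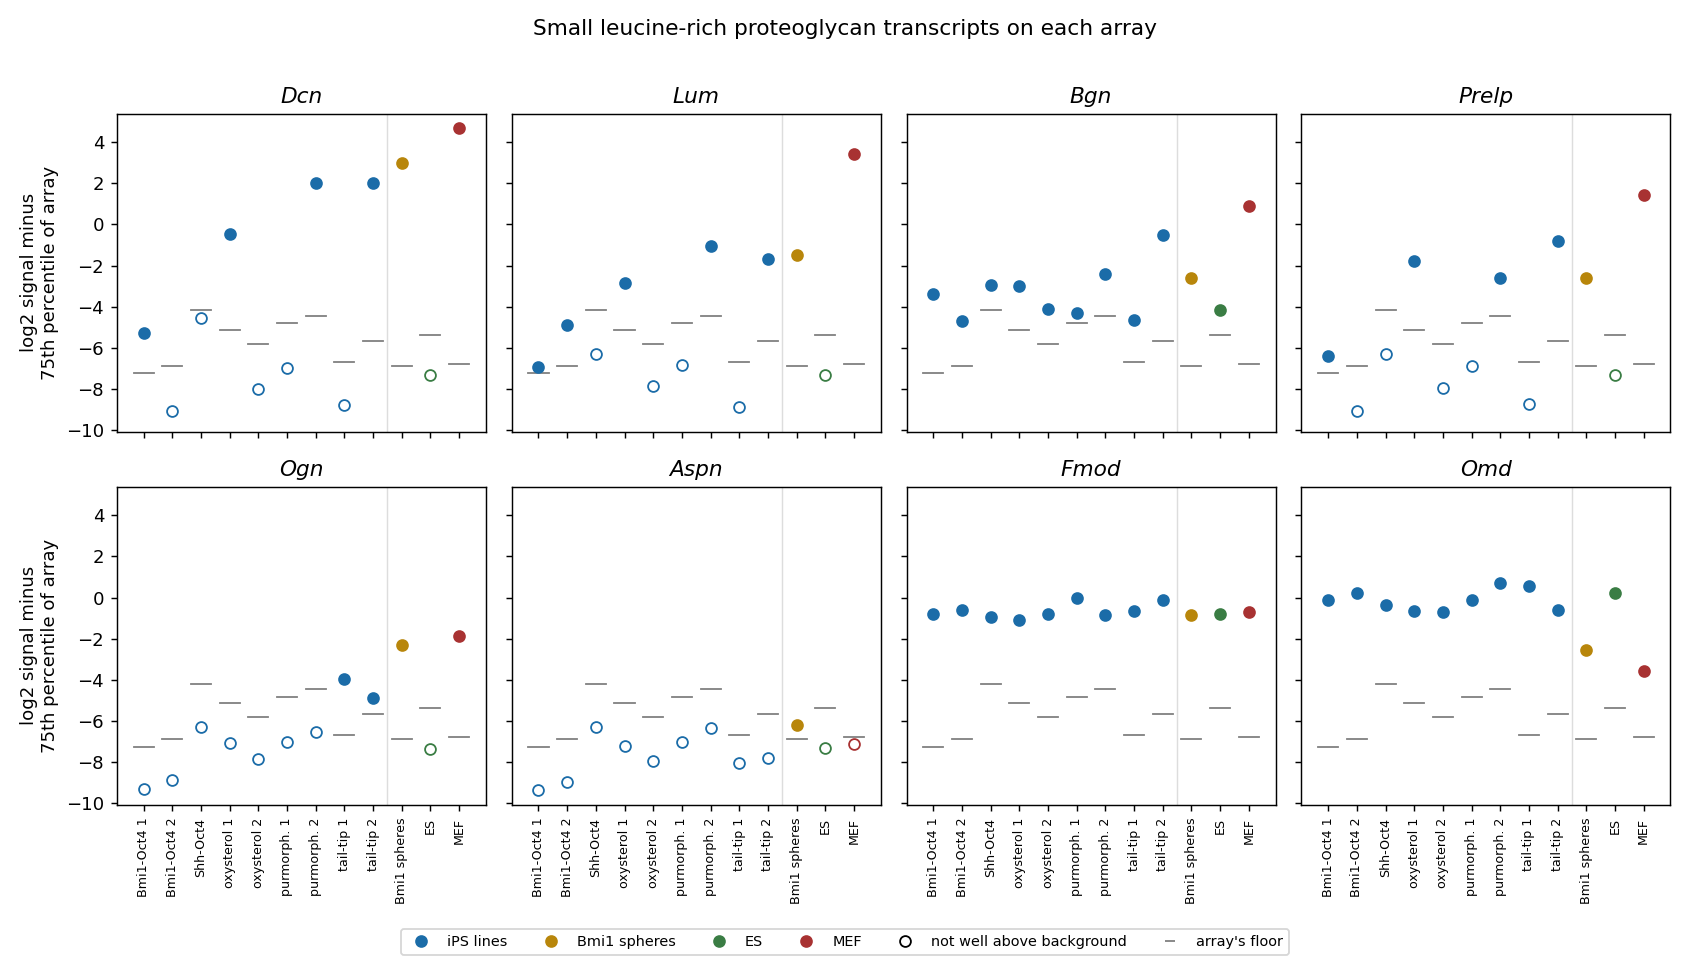
Level of each member on each of the 12 arrays, as log2 signal minus the array's 75th percentile; filled points are well above background, hollow points are not, and grey bars are the array's floor, its lowest signal well above background. Dcn, Lum and Prelp are highest in the MEF sample (4.67, 3.43 and 1.42), and the same 3 lines, all below MEF, are the highest of the lines. Fmod is level, and Omd is lowest in MEF (-3.58).

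Clones of 1 group could differ widely. Dcn was at least 419-fold higher in one tail-tip clone than in the other, at least 114-fold between the purmorphamine-Oct4 clones and at least 40.7-fold between the oxysterol-Oct4 clones. The same clone was the brighter of its pair for Dcn, Lum, Bgn and Prelp in these 3 groups. Of the Bmi1-Oct4 clones, line 1 was the brighter for Dcn (at least 3.07-fold), Bgn and Prelp, and line 2 for Lum (4.21-fold). Prelp differed by at least 58.6-fold between the tail-tip clones and by at least 16.6-fold between the oxysterol-Oct4 clones. Omd differed by at most 2.23-fold and Fmod by at most 1.77-fold within any pair. With 2 clones a pair these are values without a test.

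The brighter and the dimmer probe of a gene gave different pictures. The dimmer Dcn probe, 36.9 kb away on the mm7 map, was above background in 2 of 9 lines (-4.05 in purmorphamine-Oct4 line 2 and -4.70 in tail-tip line 2), in spheres (-2.65) and in MEF (-0.36). Those lines were also the highest for the brighter probe. The dimmer Bgn probe, 1.5 kb from the other, was above background in 3 lines, with Bmi1-Oct4 line 1 at -5.11 and the tail-tip lines at -5.57 and -5.30. It stood at -0.49 in MEF, and was not above background in spheres or ES. The dimmer Prelp probe was above background in MEF only, at -6.16. The brighter probe of each gene was used in every test.

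**Figure D2:**
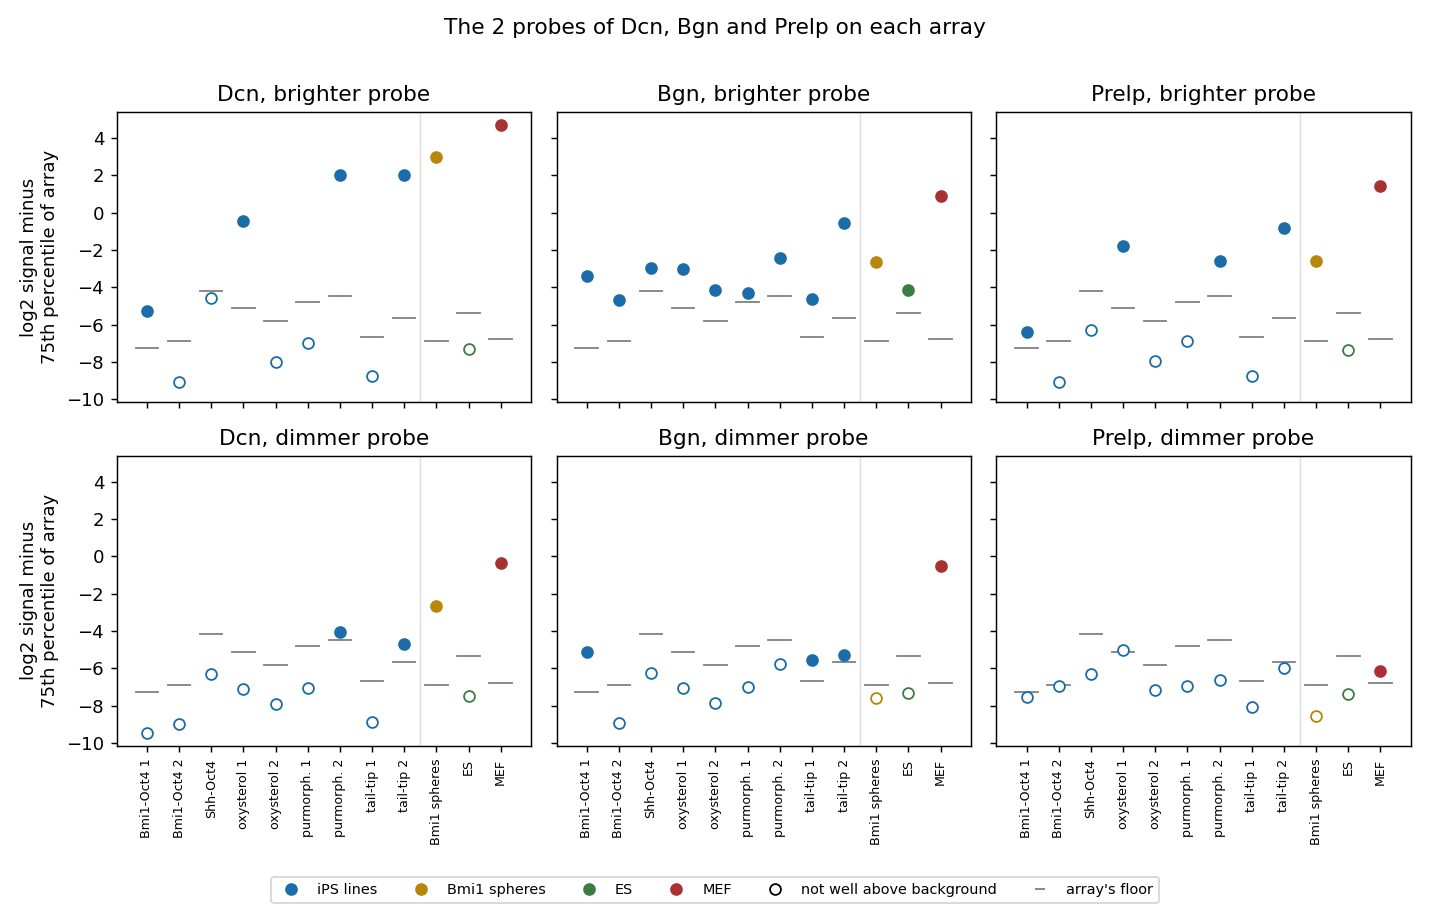
Level of the brighter (top) and dimmer (bottom) probe of Dcn, Bgn and Prelp on the 12 arrays, drawn as log2 signal minus the 75th percentile, with hollow points where the spot was not well above background. MEF is the highest sample for all probes but the dimmer one of Prelp, for which it is the only sample above background (-6.16), and most lines fall to background on the dimmer probes.

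The 9 lines were first compared with MEF, the cell type that 7 of them were made from. The mean of the lines was lower than MEF for Dcn, Lum, Prelp, Ogn and Bgn, and higher for Omd, but only Omd passed the test. Omd averaged -0.12 ± 0.52 in the lines (SD, n = 9) and -3.58 in MEF (n = 1), a log2 difference of 3.46 (SE 0.573, adjusted p = 0.00394, limma with Benjamini-Hochberg adjustment), higher in 9 of 9 lines. The share of all 25197 genes that passed was 10.9%, with 7.87% higher and 2.99% lower (27.6% at an unadjusted p below 0.05), so 1 of 8 members called is close to that share. On the slide that held MEF, where the lines were the 2 of Bmi1-Oct4, the Omd difference was 3.63 (adjusted p = 0.136), and with slide as a fixed block it was 3.63 (adjusted p = 0.0233).

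The lower members had large differences with large errors. Dcn averaged -4.35 ± 4.46 in the lines (SD, n = 9) and 4.67 in MEF, a difference of -9.01 (SE 4.16, adjusted p = 0.192, limma). For Lum the difference was -8.68 (SE 2.62, adjusted p = 0.0611, limma), for Prelp -7.03 (SE 2.90, adjusted p = 0.150, limma) and for Ogn -4.98 (SE 1.63, adjusted p = 0.0798, limma). Bgn averaged -3.35 ± 1.33 in the lines and 0.89 in MEF, a difference of -4.24 (SE 1.28, adjusted p = 0.0604, limma). For these 5 genes no line reached the MEF value. The share of all genes with all 9 lines on the same side of MEF was not counted, here or for Omd. These counts are therefore descriptions and support nothing. Values below background entered these fits as measured, so the sizes are uncertain. Ogn, above background in 2 of 9 lines, had a difference that ran from -7.19 to -2.27 over 23 alternatives. Over 24 alternatives Prelp ran from -9.15 to -3.80, Dcn from -11.85 to -7.06 and Lum from -9.69 to -6.84. Fmod differed by 0.05 (95% interval -0.95 to 1.06, adjusted p = 0.951, limma), with a sign that turned under quantile normalization. Aspn was not above background in any line or in MEF and has no fold.

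The median difference of the members was -4.61, against 0.38 over all genes, and 6 of 8 were negative. Without tail-tip line 2, the highest line for Bgn, 3 members passed: Omd, Lum (adjusted p = 0.0448, limma) and Bgn (adjusted p = 0.0108, limma). Without purmorphamine-Oct4 line 2 there were 2, Omd and Lum (adjusted p = 0.0376, limma), and without tail-tip line 1 also 2, Omd and Ogn (adjusted p = 0.0393, limma). In that order, 10.6%, 9.63% and 9.79% of all genes passed in these fits. Each line left out was the highest or next highest for the genes gained. Larger differences and a smaller spread follow from that and support nothing. Normexp background correction called 5 members, with Lum, Prelp, Ogn and Bgn lower, where 11.5% of all genes were called (6.81% higher, 4.65% lower). Of the genes called in all, 72.5% were higher in the lines, against 59.4% with normexp and 62.4% with quantile normalization; the median over all genes was 0.12 after quantile normalization.

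Against the spheres, Omd was again the member that passed. It averaged -0.12 in the lines and -2.55 in spheres, a difference of 2.42 (SE 0.573, adjusted p = 0.0266, limma), higher in 9 of 9 lines. Here 8.71% of all genes passed (5.8% higher, 2.91% lower). The call was lost with slide as a fixed block (2.49, adjusted p = 0.0757, limma), on the slide of the spheres alone (2.49, adjusted p = 0.156, limma), in the 8-group model (2.40, adjusted p = 0.0670, limma) and without the 3 lines with the highest fibroblast marker median (2.37, adjusted p = 0.0565, limma).

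The remaining members did not pass against the spheres. Dcn differed by -7.33 (SE 4.16, adjusted p = 0.338, limma) and Ogn by -4.54 (SE 1.63, adjusted p = 0.125, limma), with all 9 lines below the spheres for both. How many of all genes had all 9 lines on the same side of the spheres was not counted. The differences of Lum (-3.76), Prelp (-3.01) and Bgn (-0.73) were smaller, and 1, 3 and 2 lines exceeded the spheres. Fmod differed by 0.17. The median of the members was -2.24, against -0.03 over all genes. Both comparisons share the lines, so their values are not independent. Of all genes called here 66.6% were higher in the lines, against 55.5% with normexp.

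Against ES no member passed, where 0.0238% of all genes did (6 genes, 0.00794% higher and 0.0159% lower). At an unadjusted p below 0.05, 4.55% of genes and no member passed (limma). Omd averaged -0.12 in the lines and 0.25 in ES, a difference of -0.37 (95% interval -1.64 to 0.90). Bgn differed by 0.80 (95% interval -2.03 to 3.63) and Fmod by 0.16 (95% interval -0.84 to 1.16). The mean of the lines was at least 2.02-fold above ES for Dcn and at least 1.08-fold for Lum, because ES was not above background. The intervals reach -6.26 to 12.23 for Dcn and -3.76 to 7.88 for Lum. The highest line for Dcn lay far above ES, as the values by line show, while 5 of 9 lines were, like ES, not above background. The median of the members was 0.64, against 0.04 over all genes.

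**Figure D3:**
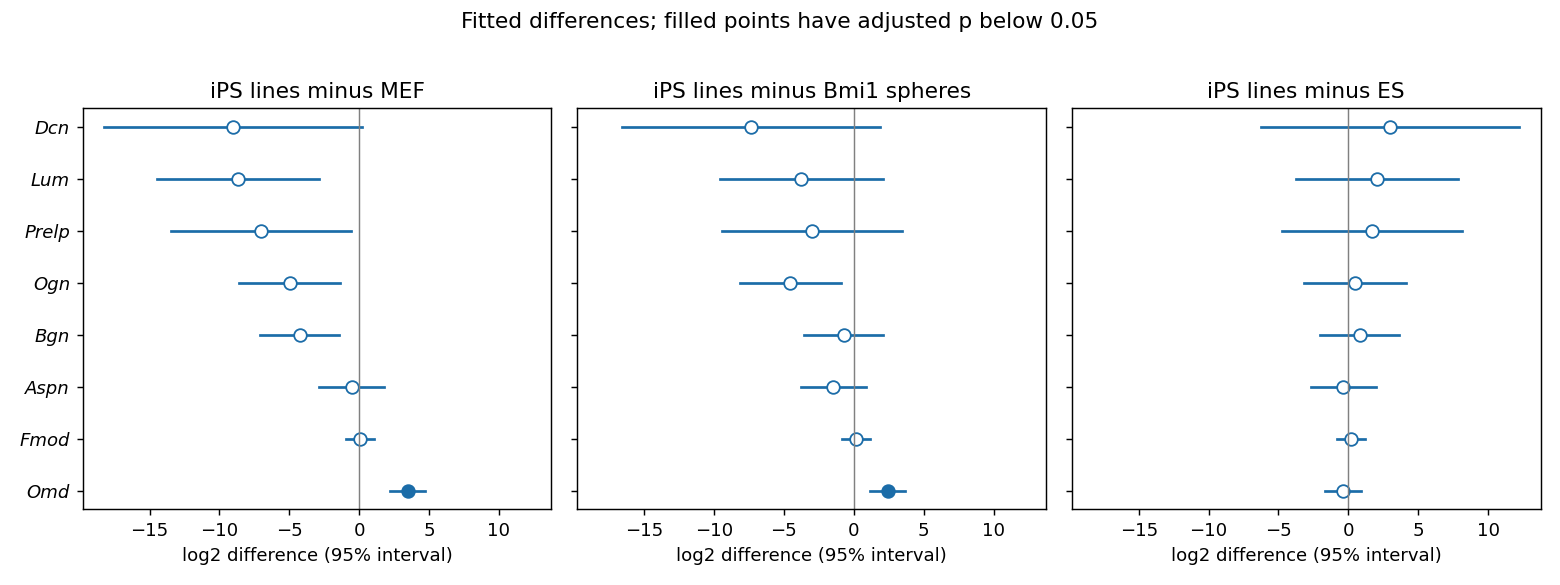
Fitted log2 difference of each member with its 95% interval for the 9 lines minus MEF, minus spheres and minus ES; filled points passed at an adjusted p below 0.05. Omd passed against MEF (3.46) and spheres (2.42), and the intervals of Dcn, Lum and Prelp are the widest.

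Single arrays were set side by side without a test. Spheres had 5 members at least 2-fold from MEF, Omd higher (2.05-fold) and Dcn (3.21-fold), Bgn (11.4-fold), Prelp (16.2-fold) and Lum (30.3-fold) lower. Over all genes 32.4% were higher and 18% lower by this measure. ES had 6 members apart from MEF, with Omd 14.2-fold higher. Dcn was at least 1040-fold lower, Lum at least 441-fold, Prelp at least 109-fold, Bgn 33.0-fold and Ogn at least 11.1-fold, where 25.6% of all genes were higher and 21.6% lower. Spheres exceeded ES by this measure for 6 members, where 28.1% of all genes did, and for 5 of them the excess holds against the ES floor. Dcn was at least 325-fold higher in spheres, Lum at least 14.6-fold, Ogn at least 8.19-fold and Prelp at least 6.76-fold, while Bgn was 2.89-fold higher. Aspn, the sixth, was kept through the sphere array alone, lay in spheres (-6.19) below the ES floor (-5.36) and gives no fold. Omd was 6.94-fold lower in spheres than in ES, among 21.3% of genes that were lower. Under normexp or quantile normalization Omd no longer reached 2-fold between spheres and MEF.

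Between groups of lines no member passed, and no gene of 25197 did (0%). For tail-tip against oxysterol-Oct4 lines made from embryonic fibroblasts, Ogn came nearest. It averaged -4.42 ± 0.65 in the tail-tip lines and -7.47 ± 0.54 in the oxysterol-Oct4 lines (SD, n = 2 each). The difference was 3.05 (SE 0.526, unadjusted p = 0.00102 and adjusted p = 0.413, limma). Ogn was above background in 2 of 2 tail-tip lines and 0 of 2 oxysterol-Oct4 lines, a difference of at least 2.07-fold. At an unadjusted p below 0.05, 6.43% of all genes passed (limma). Dcn, Lum and Prelp differed by 0.87, 0.09 and 0.08, far less than between the 2 clones of either group, and Bgn by 0.98, Omd by 0.65 and Fmod by 0.56. The groups lay on different slides.

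For Bmi1-Oct4 against the 3 hedgehog-activator groups, made from the same kind of fibroblast, Dcn differed by -3.42 (SE 3.96), Prelp by -2.43 (SE 2.73), Bgn by -0.75 (SE 1.21), Lum by -0.72, Omd by 0.30 (SE 0.460) and Fmod by 0.06. The adjusted p of these 6 members was 0.936 for Prelp and higher for the others (limma). The Bmi1-Oct4 lines shared no slide with the others, so slide and group cannot be told apart here. Ogn and Aspn were not above background in any of these lines, so they have no fold. Their fitted values were the 2 of 8 members with an unadjusted p below 0.05 (adjusted p = 0.120 for both, limma), as were 9.89% of all genes.

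The lines with high Dcn, Lum and Prelp also differed in fibroblast markers. Over 12 fibroblast markers, none of them a member, the median level by line ran from -4.43 to 0.20, against 0.26 in spheres, -3.73 in ES and 3.13 in MEF. It was 0.20 in purmorphamine-Oct4 line 2 and 0.01 in tail-tip line 2, the lines with the highest Dcn and Lum. Oxysterol-Oct4 line 1 (-3.27) had a low median with Dcn at -0.48, and Bmi1-Oct4 line 1 (-1.10) a higher one with Dcn at -5.27. The log2 of the summed marker signal was 1.83 to 5.56 in lines, 6.40 in spheres, 2.83 in ES and 7.35 in MEF.

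Of the 12 markers, 6 to 10 were above background in a line, 10 in spheres, 8 in ES and 12 in MEF. Postn and Fap, a matrix protein and a surface protease of activated fibroblasts, were not above background in any line, in spheres or in ES. Against MEF all 12 markers had a lower mean in the lines, with a median of -5.29. Of the 12, 6 passed as lower (limma), where 2.99% of all genes did. Without the 3 lines with the highest marker median (purmorphamine-Oct4 line 2, tail-tip line 2 and Bmi1-Oct4 line 1), the Dcn difference from MEF was -10.98 (adjusted p = 0.0611, limma), that of Lum -9.69 (adjusted p = 0.0251, limma) and that of Bgn -4.86 (adjusted p = 0.0126, limma). The lines left out include the 2 highest for Dcn, Lum and Bgn, so larger differences and a smaller spread follow from that choice and support nothing. The part of fibroblast RNA in these values was not tested, and in bulk samples fewer cells of a type and less RNA per cell cannot be told apart.

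**Figure D4:**
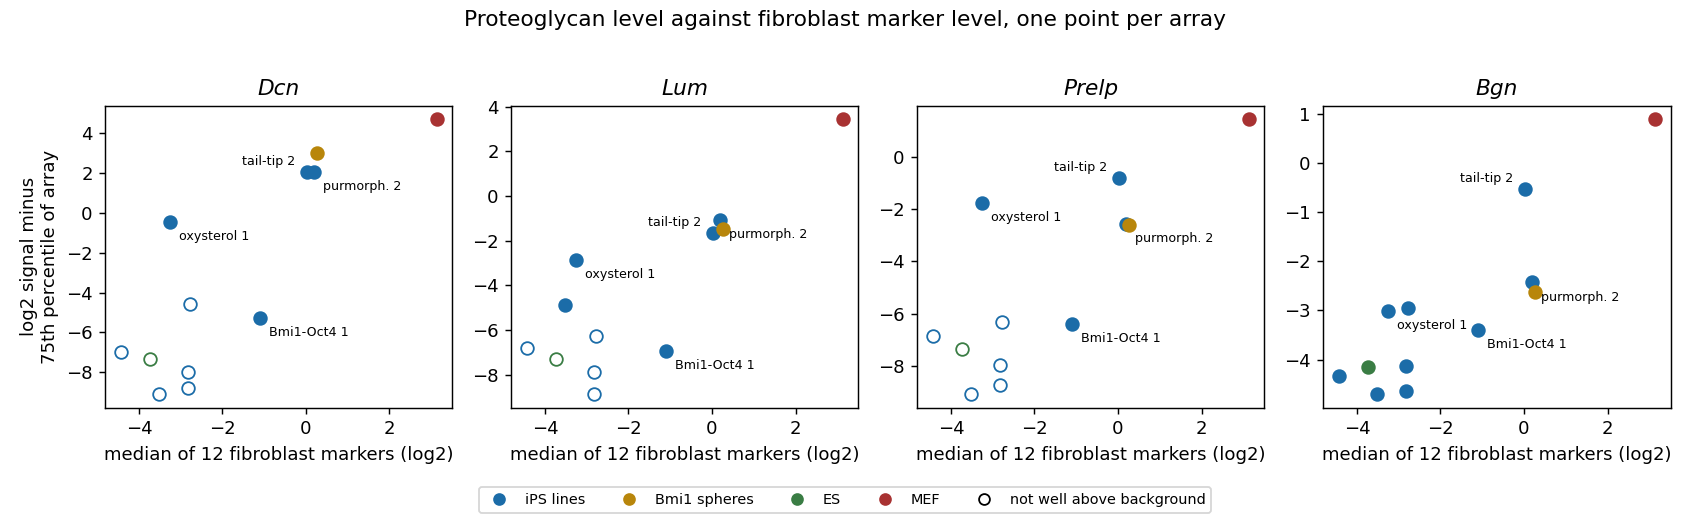
Level of Dcn, Lum, Prelp and Bgn on each array against the median of 12 fibroblast markers on it, both as log2 signal minus the 75th percentile, with hollow points not well above background. MEF (3.13) is highest on both axes. Purmorphamine-Oct4 line 2 and tail-tip line 2 have marker medians near that of the spheres. Tail-tip line 2 lies above the spheres for Prelp (3.45-fold) and Bgn (4.25-fold). Bmi1-Oct4 line 1 has a marker median of -1.10 with Dcn at -5.27.

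Among cartilage and bone markers, which Omd, Ogn and Aspn can accompany in the skeleton, Ibsp was above background in spheres only, at -3.04. Acan, the main cartilage proteoglycan, was higher in the lines than in MEF (2.60, adjusted p = 0.0184, limma), 1 of 8 markers called. Their median difference was 0.31, against 0.38 over all genes, and by sign 4 of 8 were higher and 4 lower. Among the lower were Runx2, at 2.64 in MEF and -6.81 to 0.43 in the lines, and Sox9, at 3.51 and -1.20 to 2.92. Of the smooth muscle and pericyte markers 1 of 7 passed as higher and 1 as lower, and of fat markers 1 of 4 as lower (limma, lines against MEF). Of endothelial markers 1 of 4, of macrophage and leukocyte markers 1 of 5 and of neural stem markers 1 of 8 passed as higher. Over all genes 7.87% passed as higher and 2.99% as lower. By sign alone 6 of 7, 3 of 4, 2 of 4, 2 of 5 and 3 of 8 were lower, in that order. The part of these cell types in the member values was not tested.

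Among 9 other genes of the family, Nyx, nyctalopin, known from the retina, was lower in the lines than in MEF (-5.75, adjusted p = 0.00398, limma). It stood at 1.56 in MEF and between -5.50 and -2.32 in the lines, with -4.62 in spheres and -4.01 in ES. The median of the 9 was -1.30. Podn, podocan, was above background in spheres only, at -4.37, and its values in the lines, ES and MEF have no order. It was kept for testing through the sphere array alone, so its difference from the spheres is given no weight. Kera, next to Lum, and Ecm2, next to Aspn, did not pass. Ecm2 was above background in 2 lines, Bmi1-Oct4 line 2 (-3.60) and Shh-Oct4 (-3.31), in neither of which Dcn was. Against ES none of the 9 passed.

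The sugar chains of these proteins are built by shared enzymes. Of 6 linker genes, Xylt1, which starts the chain, was higher in the lines than in MEF by at least 8.64-fold (adjusted p = 0.0309, limma), and the median was 0.27. Of 16 chondroitin and dermatan sulphate genes the sulphotransferase Chst3 was higher by at least 9.75-fold (adjusted p = 0.0258, limma) and Csgalnact2 lower (-1.62, adjusted p = 0.0310, limma), with a median of -1.91. Of 9 keratan sulphate genes B3gnt7 was higher (4.60, adjusted p = 0.0232, limma) and Chst2 lower (-3.97, adjusted p = 0.0257, limma), with a median of -1.34. Against the spheres, Chst7 was higher by at least 182-fold (adjusted p = 8.5e-05, limma) and Papss2, which makes the sulphate donor, lower (-3.49, adjusted p = 0.0306, limma). No linker gene passed there. Against ES none of the genes of these lists passed. Of all genes 7.87% passed as higher and 2.99% as lower against MEF, and 5.8% and 2.91% against spheres.

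Processing genes were lower in part. Of 7 propeptide protease and tyrosine sulphation genes, the procollagen protease enhancer Pcolce (-1.65, adjusted p = 0.0383, limma) and the tyrosine sulphotransferase Tpst2 (-1.37, adjusted p = 0.0311, limma) were lower in the lines than in MEF, with a median of -1.37. Of all genes 2.99% passed as lower against MEF. Against spheres and ES none of the 7 passed.

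Most partners of these proteins averaged lower in the lines than in MEF, 8 of 9 and 9 of 10 in the lists below. The share of all genes with a lower mean was not counted, and the median over all genes was 0.38. Of 9 fibrillar collagen and crosslinking genes none passed against MEF, spheres or ES. Against MEF the median was -2.85, and Col5a2 (-7.80, adjusted p = 0.0509, limma) and Lox, the collagen crosslinking oxidase (-7.46, adjusted p = 0.254, limma), had the largest differences. Lox was above background in 4 lines, tail-tip line 2 (2.44), purmorphamine-Oct4 line 2 (1.27), oxysterol-Oct4 line 1 (0.18) and Bmi1-Oct4 line 1 (-0.34), the lines in which Dcn was. Of 10 ligands and receptors reported to bind decorin or biglycan, Tgfb2 (-4.74, adjusted p = 0.0222, limma) and Egfr (-3.72, adjusted p = 0.0286, limma) were lower in the lines than in MEF, with a median of -4.23. Against spheres Tgfb2 was higher by at least 50.2-fold (adjusted p = 0.00148, limma), Egfr by at least 201-fold (adjusted p = 0.000121, limma), and Tlr4, a biglycan receptor, was lower (-7.19, adjusted p = 0.0469, limma). Of all genes 2.99% passed as lower against MEF. Against spheres 5.8% passed as higher and 2.91% as lower.

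The genes with the most similar pattern were found as Pearson correlation over the 12 arrays, after raising values to the highest array floor of -4.18, among 17035 genes above background on at least 3 arrays. The arrays share cell types, so these are descriptions without a test. For Dcn they were Col1a2 (0.980), a chain of type I collagen, Serpinf1 (0.968) and Cpq (0.957). For Lum they were Olfr665 (0.981), Spaar (0.964) and Adam9 (0.960), for Prelp they included Gpr176 (0.967) and Irf7 (0.958), and for Bgn they were Ifi47 (0.944), Prelp (0.944) and Masp1 (0.940). Of these, Olfr665, Gpr176, Ifi47 and Prelp were above that floor on only 5 arrays each. For Omd they were Spats1 (0.959), Sult6b1 (0.950) and Panct2 (0.950), all high in the lines and ES and low in spheres and MEF.

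For Ogn the closest were Ccn3 (0.999), Zfp974 (0.996) and Dpt (0.996), values that rest on 2 to 4 arrays above that floor. For Fmod, whose level hardly varied, the closest were Add2 (0.920), Rbbp8nl (0.915) and Scnn1b (0.914), above that floor on only 4, 2 and 2 arrays. Aspn was at the floor on every array. For the mean of the standardised members the 10 closest included Serpinf1 (0.959), Ereg, Klhl5, Actr1a, Rab32, Plg, Spaar, Saa3 and Itga2 (0.938).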

How the data were processed

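RNA of 12 mouse samples was measured on 12 arrays, 1 each. Per the file headers, the deposited intensity values are processed signals of Agilent Feature Extraction 9.5.3.1, background-subtracted and not scaled between arrays; the flags for well above background, saturation and outliers come from the same software. The sources used here give no other step. The sphere sample is called iPS in its description and neural stem cell-like in its source label, and was kept as a group of its own.

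Of 43379 gene spots (41174 probes), outlier spots were left out, replicate spots were averaged on the log2 scale and the array's 75th percentile was subtracted. Probes missing on an array (428) or not well above background on at least 1 array were left out, and each gene was its probe with the highest mean (25197 genes). A probe's gene came from a RefSeq table by accession (23082 probes), by symbol or synonym (9655), or as deposited (8437). No member spot was saturated. Where a group was not above background on all its arrays, a fold is a bound: the mean of the brighter group against, per array, the higher of the array's floor (-7.25 to -4.18) and the probe's own signal.

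Lines were compared with MEF, ES and spheres in a limma 3.58.1 model of 4 classes (8 residual degrees of freedom; R 4.3.3), and among themselves in a model of 8 groups (4 degrees), with Benjamini-Hochberg adjusted p-values over all genes and a threshold of 0.05. A class of 1 array is assumed to vary as the lines do. Single arrays were compared at 2-fold. The fit was tested on simulated data. The arrays came on 3 slides of 4 (MEF, ES and the Bmi1-Oct4 lines on the first).

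Members and gene lists were chosen with earlier results of these data known. Named were all members, up to 4 genes per list with the largest difference among those that passed (up to 2 where none passed), and the genes most alike (some are not reported here); other marker and family genes given with values were named after seeing them. Alternatives were normexp background (offset 50), quantile normalization, a percentile over probes seen on every array, dropping the filter or asking for 6 arrays, mean of probes, an intensity trend, slide as a block (fixed, or random by duplicateCorrelation), single slides, raised dim values, the clone number as a block, the 8-group model, omission of the tail-tip pair or of 1 line at a time, and a 3-fold threshold. Leaving out the 3 lines with the highest fibroblast marker median was chosen after seeing the data. Promoter windows and current symbols are RefSeq's (GRCm38.p6).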

Additional observations from a re-analysis of the deposited data

Results flagged for a closer look

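For Fmod, the tail-tip lines averaged -0.38 ± 0.36 and the oxysterol-Oct4 lines -0.94 ± 0.21 (SD, n = 2 each), on either side of MEF at -0.70. Both tail-tip lines (-0.64 and -0.12) lay above MEF and both oxysterol-Oct4 lines (-1.09 and -0.78) below it, which singled this gene out. The gap of the 2 means was 0.56 log2 units. The test of that difference between the groups did not pass (SE 0.459, adjusted p = 0.813, limma), and with slide as a fixed block the difference was -0.27.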

How the results depend on the processing

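Lines against MEF: 1 member passed as reported. The count was 5 with normexp, 3 with the 6-array filter, an intensity trend, raised dim values, without the tail-tip lines or without the 3 lines with the highest fibroblast marker median (chosen after seeing the data), 2 with quantile normalization, mean of probes, slide as a fixed block or the 8-group model, and 0 within the slide of MEF. Leaving out 1 line gave 1 to 3. Over all genes 2736 passed, against 1760 with slide as a fixed block and 0 within the slide. The share of all genes was 10.9% as reported, 11.5% with normexp, 14.9% with the 6-array filter and 12.6% with a trend. With raised dim values it was 11.3%, without the tail-tip lines 9.27% and without those 3 lines 9.64%. Quantile normalization gave 10.4%, mean of probes 10.3%, slide as a fixed block 6.98% and the 8-group model 7.83%. Leaving out 1 line gave 2355 to 3285 genes. Fmod turned to -0.0152 with quantile normalization and -0.0243 without the tail-tip lines, to -0.0043 with slide as a fixed block and within the slide, and ran from -0.0253 to 0.107 when 1 line was left out. Lines against ES: 6 genes passed, against 51 with normexp, 84 with quantile normalization, 307 with raised dim values, 2 with no filter, the 6-array filter, a trend or the clone number as a block, and 0 with mean of probes, slide as a fixed block, the 8-group model, within the slide, without the tail-tip lines or without those 3 lines; leaving out 1 line gave 0 to 10. Aspn turned to 0.14 with quantile normalization, Ogn to -1.74 with slide as a fixed block and within the slide and -0.22 without the tail-tip lines, and Prelp to -0.39 with slide as a fixed block and within the slide. Lines against spheres: 1 member passed, against 2 with normexp, quantile normalization, raised dim values or without the tail-tip lines, and 0 with slide as a fixed block, within the slide or without those 3 lines; leaving out 1 line gave 1 throughout. The call of Omd was also lost in the 8-group model, and Ogn passed in 5 of 23 alternatives. Of 2194 genes 735 passed within the slide, and Bgn turned to 0.15 with mean of probes. The share of all genes against spheres was 8.71% as reported, 10.1% with normexp and 10.3% with quantile normalization. It was 11% with raised dim values, 7.05% without the tail-tip lines, 6.14% with slide as a fixed block and 7.49% without those 3 lines. Tail-tip against oxysterol-Oct4 lines: 24 genes passed with raised dim values, against 0. Aspn turned to 0.29 with quantile normalization and 0.31 with slide as a fixed block, Fmod to -0.27 with slide as a fixed block, and Prelp to -0.44 with mean of probes. With slide as a random block Prelp was -0.42, Dcn -0.20 and Lum -0.59. Leaving out 1 line gave -4.53 to 6.26 for Dcn, -3.52 to 3.69 for Lum, -1.08 to 3.04 for Bgn, -3.89 to 4.05 for Prelp and -0.72 to 0.0105 for Aspn. Bmi1-Oct4 against hedgehog-activator lines: without a filter 2 members passed, Ogn and Aspn, neither above background in any of these lines, and 2385 genes; 334 genes passed with raised dim values, against 0. Fmod turned to -0.0615 with normexp, and leaving out 1 line gave -0.0777 to 0.20 for Fmod and -1.75 to 0.32 for Lum. Slide as a fixed block could not be estimated there. Of 950 member differences under alternatives, 855 kept direction and side of the threshold. Causes were not tested.

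The clone number did not pair the samples: deviations of same-numbered lines correlated between -0.163 and 0.243 over 6 pairs of groups. With it as a replicate block, 1 member passed against MEF, 0 against ES and 1 against spheres, as without it, and 2455, 2 and 1936 genes. MEF, ES and the spheres have 1 array each, so their own spread is unknown, and values near the floor have no order.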
